A study of Mus musculus with 4 samples.

Results

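Macrophage polarization genes are transcripts that textbooks use to tell classically activated (M1) from alternatively activated (M2) macrophages. The 10 genes described here, chosen by symbol, were Nos2, Arg1, Chil3, Retnla, Il10, Il12b, Il1rn, Acod1, Cd38 and Spp1. All 10 were found among the 16349 genes of the table of non-malignant tumor cells. The table of malignant cells, used as background, holds 17992 genes, 9 of these 10 among them, and Il12b is not a row of it.

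The cells came from sarcomas grown as allografts in the hind limb of 129/SvJae mice, a model whose genotype label carries Trp53flox/flox alleles in every sample of both groups. Mice of the vehicle group (2 mice) received PBS and mice of the digoxin group (2 mice) received 2 mg/kg digoxin, a cardiac glycoside, which had been dissolved in DMSO and diluted in PBS. Both were injected into the peritoneum every 24 h, and each tumor was taken after dose 4. Tumors were digested for 45 min at 37 °C with collagenase, dispase and trypsin before droplet sequencing of RNA 3′ ends with unique molecular identifiers (UMIs), so enzyme treatment preceded every value, and the mouse was the replicate.

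Classical activation is driven by interferon-gamma and bacterial products through NF-kB, STAT and interferon regulatory factors, and alternative activation by interleukin-4 and interleukin-13 through STAT6. The enzymes Nos2 and Arg1 use the same amino acid, arginine, for nitric oxide or for ornithine and urea, and are the usual pair of opposing markers. Macrophages of tumors often carry genes of both programs, and Spp1 is a common marker of tumor macrophages.

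Levels are given as mean CPM, a gene's share of the UMIs of a cell on the CPM scale, averaged over the cells of a mouse, with vehicle replicates 1 and 2 before digoxin replicates 1 and 2. The authors' annotation names 4874 vehicle and 5489 digoxin cells Macrophage and splits them into sub-clusters called M1 (1095, 712, 1307 and 1166 cells in the 4 mice), M2 (948, 1511, 1136 and 1191) and Highly proliferative M2 (375, 233, 305 and 384). Total UMIs per library were 52417178 to 59626065 in non-malignant cells, and the median per cell was 12918 to 14702 in M1 and 16329.5 to 17650 in M2. All 8 macrophage markers of the list used here (Adgre1, Csf1r, Cd68, C1qa, C1qb, Fcgr1, Mertk and Itgam) were detected in every sub-cluster. Their summed level was 5031 to 7458 CPM in M1 and 10647 to 14121 CPM in M2. Among the monocyte markers, Ly6c2, Ccr2 and Plac8 were higher in M1 in every mouse, with Ly6c2 at 368, 339, 249 and 419.9 CPM in M1 and 7.99, 1.15, 3.22 and 9.51 CPM in M2. F13a1 was lower in M1 in every mouse, at 483, 312, 563 and 596 CPM against 1896, 1440.0, 1977 and 1757 CPM in M2. Over all 5 monocyte markers the sums were 2188 to 2637 CPM in M1 and 1741 to 2314 CPM in M2, and their part in the differences below was not tested. Vehicle replicate 2 stood apart in that M1 made up 45.3, 29.0, 47.6 and 42.5% of the macrophages of the 4 mice and M2 39.2, 61.5, 41.3 and 43.5%. Pairs of libraries shared 14 to 25 cell barcodes.

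The names of the sub-clusters matched the textbook assignment for some of the genes and not for others. Nos2, Acod1, Il1rn, Spp1, Arg1 and Chil3 were higher in M1 than in M2 in each of the 4 mice, although Arg1 and Chil3 are counted among the alternative activation genes. Il1rn and Spp1 are not taken here as markers of classical activation. Il10 and Cd38 were lower in M1 in each mouse, although Cd38 is an inflammatory marker in mouse macrophages. Of the 11932 genes tested in both sub-clusters, among which Nos2 is not, 18.6% were higher in M1 in all 4 mice and 49.1% were lower. Retnla was split between mice, and Il12b was close to 0 in all 3 sub-clusters. Because the authors' sub-clusters were made from the expression of these same cells, these differences are descriptions and carry no test.

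**Figure D1:**
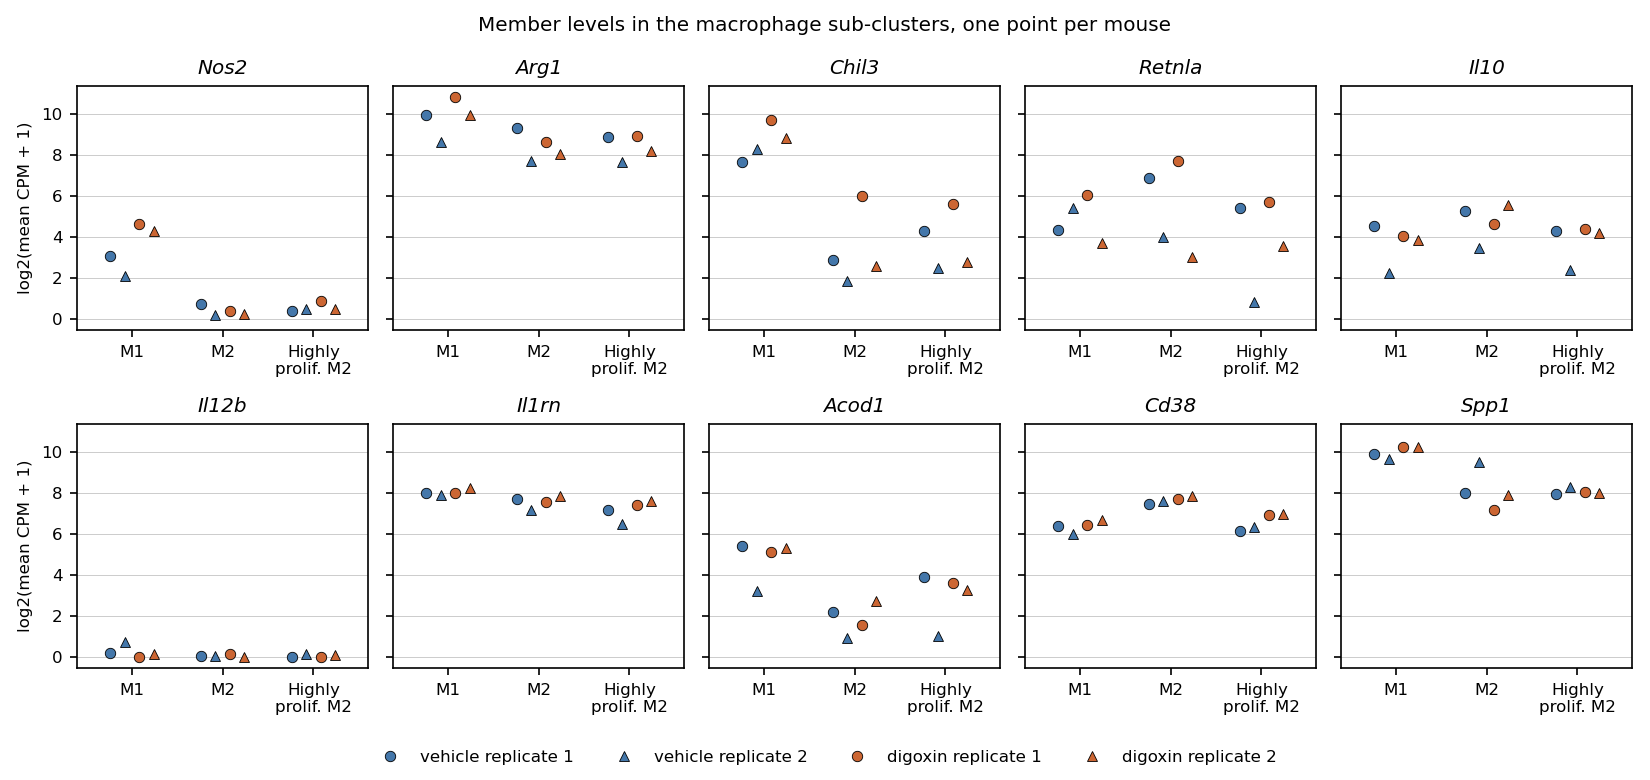
Mean level of each of the 10 genes (log2 of mean CPM plus 1, vertical axis) in the 3 macrophage sub-clusters (horizontal axis), with 1 point for each mouse, circles for replicate 1 and triangles for replicate 2. Nos2 reached 3.34 to 23.8 CPM in M1 and stayed under 1 CPM in both other sub-clusters, and Cd38 was highest in M2 at 175 to 232 CPM.

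**Figure D2:**
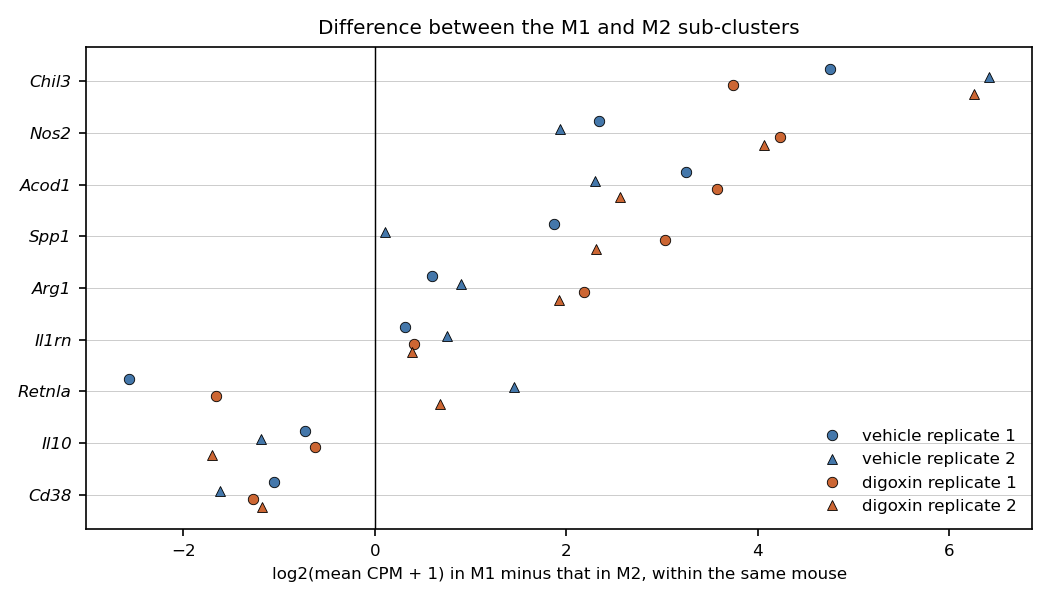
Difference in log2(mean CPM + 1) between M1 and M2 of the same mouse (horizontal axis) for 9 genes (vertical axis, Il12b left out), with 1 point for each mouse. Points right of the line at 0 are higher in M1. Chil3 lay at 4.75, 6.41, 3.74 and 6.25 and Nos2 at 2.34, 1.93, 4.23 and 4.06, so that Chil3 was farthest right in 3 mice and Nos2 in digoxin replicate 1, and Retnla had points on both sides.

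Nos2, the inducible nitric oxide synthase, lies on chromosome 11, 78920787 to 78960226 of GRCm38. In M1 it was at 7.54 and 3.34 CPM with vehicle and 23.8 and 18.8 CPM with digoxin, and both digoxin mice lay above both vehicle mice. M2 cells held 16, 4, 6 and 4 Nos2 UMIs in the 4 mice, a level of 0.680, 0.137, 0.320 and 0.188 CPM, so that M1 was 11.1- to 99.8-fold higher within a mouse. Few cells carried the transcript. After every cell was thinned to 5000 UMIs, so that depth was equal, 1.93, 0.994, 4.02 and 3.20% of M1 cells had a Nos2 UMI, against 0.107, 0.0664, 0.177 and 0.169% of M2 cells. NK cells, which served as a population expected to lack the gene, had 0 Nos2 UMIs in 144, 69, 150 and 141 cells. Exact 95% binomial limits on the NK shares after thinning reach 2.62, 5.36, 2.48 and 2.68%, for counting error only. These limits lie above the M1 shares of both vehicle mice and below those of both digoxin mice. They are set by the number of NK cells and leave out the counting error of the M1 shares. NK cells therefore cannot show that the M1 share exceeds background only with digoxin. In the vehicle mice a Nos2 UMI was found in 21 of 1088 and 7 of 704 thinned M1 cells. In M2 of the same mice it was found in 1 of 936 and 1 of 1507.

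Arg1, arginase 1, which turns arginine into ornithine and urea, lies on chromosome 10, 24915207 to 24927470. Its level in M1 was 982 and 396 CPM with vehicle and 1818 and 987 CPM with digoxin, with vehicle replicate 1 and digoxin replicate 2 nearly equal and vehicle replicate 2 lowest. In M2 it was at 649 and 211 CPM with vehicle and 399 and 260.5 CPM with digoxin, where vehicle replicate 1 was highest and the groups overlapped. M1 was 1.51- to 4.55-fold higher than M2 within a mouse, a difference of 0.60, 0.90, 2.18 and 1.92 on the log2 scale. More cells did not always accompany a higher mean. Shares of thinned cells with an Arg1 UMI were 46.0, 21.9, 53.1 and 39.2% in M1 and 69.3, 33.5, 44.0 and 38.2% in M2, so in both vehicle mice the share was larger in M2 and the mean larger in M1. In NK cells thinned the same way, a background, the Arg1 shares were 7.19, 0, 11.6 and 2.94%, and 4.44, 0, 10.0 and 2.31% without cells marked as doublets. These marked NK cells, 4, 1, 7 and 6 a mouse, held most of the Arg1 UMIs of NK cells in 3 of the 4 mice. The UMIs were 173, 2, 176 and 132 with them and 10, 2, 22 and 45 without. The top 10% of M1 cells held 63.7, 88.2, 55.1 and 67.8% of the Arg1 UMIs of M1.

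Macrophages with Nos2 carried Arg1 more often than macrophages without it in each of the 4 mice. Among thinned macrophages with a Nos2 UMI, 72.7, 66.7, 85.5 and 80.0% also had an Arg1 UMI, against 57.1, 29.7, 47.5 and 38.2% of macrophages without Nos2. The Nos2 cells behind these shares number only 22, 9, 55 and 40. Within M1 alone, 3, 3.25, 6.54 and 6.62% of Arg1 cells had a Nos2 UMI and 1.02, 0.364, 1.15 and 0.994% of the other M1 cells did. These shares describe cells of the same libraries, and no test was made over cells.

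Chil3 and Retnla, secreted proteins known as Ym1 and FIZZ1, are both classical targets of STAT6 in mice, and here they took different patterns. The 250 bases before their starts in RefSeq (build GRCm38.p6) were searched on both strands for 5 motifs: STAT6 (TTC and GAA with any 4 bases between), interferon regulatory factor (GAAA and GAAA with any 2 between), NF-kB (GGGA and CC with any 4 between), C/EBP (TTGCNNAA) and PU.1 (GAGGAAGT). Of 32851 promoters of that length, 5.85% held the STAT6 letters, 2.98% the interferon regulatory factor letters, 17.6% those for NF-kB, 9.56% those for C/EBP and 2.44% those for PU.1. Promoter sequences matched 7 of the 10 genes. They are shown for Retnla, which was split between mice, and for the 4 genes with a promoter entry that were higher in M1 in every mouse, with 1 start each for Il1rn and Spp1, which have several. Each is printed in the direction of its gene, with matches in capitals.
Retnla, chr16:48842359-48842608, plus strand: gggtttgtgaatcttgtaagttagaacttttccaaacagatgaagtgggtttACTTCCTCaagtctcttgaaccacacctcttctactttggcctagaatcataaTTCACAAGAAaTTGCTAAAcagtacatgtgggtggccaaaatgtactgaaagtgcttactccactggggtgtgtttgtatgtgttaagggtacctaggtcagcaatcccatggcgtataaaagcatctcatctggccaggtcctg
Chil3, chr3:106167565-106167814, minus strand: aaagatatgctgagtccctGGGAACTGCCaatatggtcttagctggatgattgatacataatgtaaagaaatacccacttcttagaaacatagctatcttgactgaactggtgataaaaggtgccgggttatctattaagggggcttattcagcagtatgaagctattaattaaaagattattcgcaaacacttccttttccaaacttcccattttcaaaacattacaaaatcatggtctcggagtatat
Il1rn, chr2:24345041-24345290, plus strand: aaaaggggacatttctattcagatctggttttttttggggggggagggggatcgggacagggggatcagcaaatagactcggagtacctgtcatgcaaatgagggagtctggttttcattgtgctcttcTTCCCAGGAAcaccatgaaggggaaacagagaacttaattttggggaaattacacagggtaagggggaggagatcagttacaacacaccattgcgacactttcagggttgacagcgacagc
Acod1, chr14:103046762-103047011, plus strand: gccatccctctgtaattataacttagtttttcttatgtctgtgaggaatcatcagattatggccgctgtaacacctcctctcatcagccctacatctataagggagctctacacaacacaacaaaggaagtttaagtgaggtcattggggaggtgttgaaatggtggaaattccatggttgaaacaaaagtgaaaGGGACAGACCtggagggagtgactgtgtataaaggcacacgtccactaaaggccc
Spp1, chr5:104434861-104435110, plus strand: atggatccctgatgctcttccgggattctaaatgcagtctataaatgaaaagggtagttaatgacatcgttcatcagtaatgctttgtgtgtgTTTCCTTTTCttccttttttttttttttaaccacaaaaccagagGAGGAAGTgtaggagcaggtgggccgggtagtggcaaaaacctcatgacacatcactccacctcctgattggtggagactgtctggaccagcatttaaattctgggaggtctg

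In the Retnla window the capitals mark a PU.1 match that begins 198 bases before the start, a STAT6 match at 145 bases and a C/EBP match at 134 bases. In the Chil3 window they mark an NF-kB match at 231 bases, in the Il1rn window a STAT6 match at 121 bases, and in the Acod1 window an NF-kB match at 55 bases. For Spp1 they mark an interferon regulatory factor match at 157 bases and a PU.1 match at 113 bases. A start of Il1rn close to the one shown has the same STAT6 letters at 201 bases, another has an NF-kB match at 54 bases, and the other Spp1 start has a C/EBP match at 156 bases. The Cd38 and Il12b windows held none of the 5 motifs. A match is a description of letters and not a bound site, and the lack of one says only that these letters are not in the window.

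Chil3 was at 199.8 and 312 CPM with vehicle and 845 and 460.5 CPM with digoxin in M1 and at 6.45 and 2.68 CPM with vehicle and 62.4 and 5.05 CPM with digoxin in M2. The M1 values of both digoxin mice lay above those of both vehicle mice, whereas in M2 only digoxin replicate 1 stood out. M1 was 13.6- to 117-fold higher than M2 within a mouse. Thinned cells with a Chil3 UMI made up 20.4, 19.5, 41.5 and 38.6% of M1, 1.71, 0.796, 6.10 and 1.10% of M2 and 0, 0, 2.72 and 1.47% of NK cells. Neutrophils also make Chil3, and cells with UMIs of at least 3 of the 7 neutrophil markers numbered 2, 1, 26 and 11 in M1. Without those cells, Chil3 in M1 was at 199, 313, 834 and 452 CPM.

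Retnla was at 117 and 14.8 CPM with vehicle and 208 and 7.19 CPM with digoxin in M2, so that replicate 1 of each group was high, replicate 2 of each group was low, and the groups overlapped. In M1 it was at 19.0 and 42.3 CPM with vehicle and 64.9 and 12.1 CPM with digoxin, in an order that differed from M2. The difference between M1 and M2 was -2.56, 1.46, -1.66 and 0.68 on the log2 scale, lower in M1 in both replicates 1 and higher in both replicates 2. Most of the transcript sat in few cells. The top 1% of macrophages, 24 to 27 cells a mouse, held 72.3, 96.5, 75.9 and 98.8% of the Retnla UMIs, and 1 cell of digoxin replicate 1 held 496 of them. Thinned cells with a Retnla UMI made up 8.33, 1.13, 7.24 and 0.761% of M2 and 0, 0, 0.680 and 0% of NK cells. Cells with both transcripts were rare in M1, where 0.450, 1.46, 2.602 and 0.224% of Chil3 cells had a Retnla UMI and 2.77, 1.76, 2.11 and 0.563% of the others did. In M2 the same shares were 25, 16.7, 31.9 and 0% and 8.04, 1.00, 5.64 and 0.770%. The M2 shares rest on only 16, 12, 69 and 13 Chil3 cells, of which 4, 2, 22 and 0 had a Retnla UMI.

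Il10, an anti-inflammatory cytokine, was at 37.9 and 9.92 CPM with vehicle and 24.1 and 46.5 CPM with digoxin in M2 and at 22.4 and 3.79 CPM with vehicle and 15.3 and 13.7 CPM with digoxin in M1. It was lower in M1 in every mouse, with differences of -0.73, -1.19, -0.62 and -1.70 on the log2 scale. Vehicle replicate 2 was the lowest mouse in all 3 sub-clusters, and the groups overlapped in each. Thinned cells with an Il10 UMI made up 7.16, 2.65, 5.83 and 8.29% of M2 and 4.32, 1.42, 2.93 and 4.32% of M1, beside 1.44, 0, 0.680 and 0.735% of NK cells.

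Il12b, the subunit shared by interleukin-12 and interleukin-23, gave 5, 13, 2 and 3 UMIs over all macrophages of the 4 mice, from 2418, 2456, 2748 and 2741 cells. Dendritic cells held 96.8% of all Il12b UMIs of non-malignant cells, although they numbered only 18, 21, 14 and 10 cells. Their level was 777 and 751 CPM with vehicle and 414 and 357 CPM with digoxin, and the digoxin mice both lay under the vehicle mice. Because some mice had under 20 such cells, they entered no test. The shares of dendritic cells with an Il12b UMI were 33.3, 61.9, 42.9 and 70.0%, and their exact 95% binomial intervals ran from 13.3 to 59.0% in vehicle replicate 1 and from 34.8 to 93.3% in digoxin replicate 2. Thinned macrophages with an Il12b UMI numbered 2, 1, 1 and 0, too few to set beside Il10.

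Il1rn, the antagonist of the interleukin-1 receptor, was at 258 and 240.0 CPM with vehicle and 255 and 301 CPM with digoxin in M1 and at 207 and 143 CPM with vehicle and 192 and 229 CPM with digoxin in M2. It varied least of the M1-high genes, at 1.25- to 1.68-fold higher in M1 within a mouse. Shares of thinned cells with an Il1rn UMI were 46.5, 42.9, 44.9 and 50.5% in M1 and 38.5, 33.1, 37.6 and 40.7% in M2, against 0, 1.49, 2.72 and 2.94% in NK cells.

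Acod1, the enzyme that makes itaconate from an intermediate of the citric acid cycle, was at 42.5 and 8.40 CPM with vehicle and 33.6 and 38.7 CPM with digoxin in M1 and at 3.57 and 0.908 CPM with vehicle and 1.92 and 5.73 CPM with digoxin in M2. Vehicle replicate 2 was the lowest mouse in every sub-cluster, and the groups overlapped in each. M1 was 6.76- to 17.5-fold higher within a mouse. In M1, 72.9, 66.7, 65.9 and 67.5% of Acod1 cells also had an Il1rn UMI, against 43.6, 42.3, 43.3 and 48.6% of the other cells. Those Acod1 cells numbered 107, 18, 91 and 117.

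Cd38, an enzyme of the cell surface that consumes NAD, was at 175 and 195 CPM with vehicle and 208 and 232 CPM with digoxin in M2, at 83.7 and 62.7 CPM with vehicle and 85.4 and 102 CPM with digoxin in M1 and at 71.0 and 81.1 CPM with vehicle and 119.5 and 125 CPM with digoxin in Highly proliferative M2. The M2 range did not overlap that of any other population. Both digoxin mice lay above both vehicle mice in each sub-cluster, but by at most 0.68 on the log2 scale. The top 1% of macrophages held 6.13 to 7.47% of its UMIs, the lowest share of the 9 members compared, with Il12b left out for its few UMIs.

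Spp1, osteopontin, a secreted phosphoprotein that binds integrins and Cd44, was at 953 and 801 CPM with vehicle and 1199.6 and 1200.5 CPM with digoxin in M1. In M2 it was at 259.9 and 745 CPM with vehicle and 146 and 241 CPM with digoxin, where vehicle replicate 2 was far above the other 3 mice. The difference between M1 and M2 was therefore 1.87, 0.11, 3.03 and 2.31 on the log2 scale, smallest in vehicle replicate 2. Thinned M2 cells with an Spp1 UMI made up 29.7, 50.03, 25.2 and 27.7% of M2, again highest in vehicle replicate 2. Spp1 went with Arg1 within M1, where 57.0, 70.1, 54.5 and 60.9% of Arg1 cells had an Spp1 UMI against 27.7, 32.2, 24.4 and 30.3% of the others. In M2 the same shares were 31.6, 60.4, 30.5 and 33.0% and 25.4, 44.8, 21.0 and 24.4%.

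**Figure D3:**
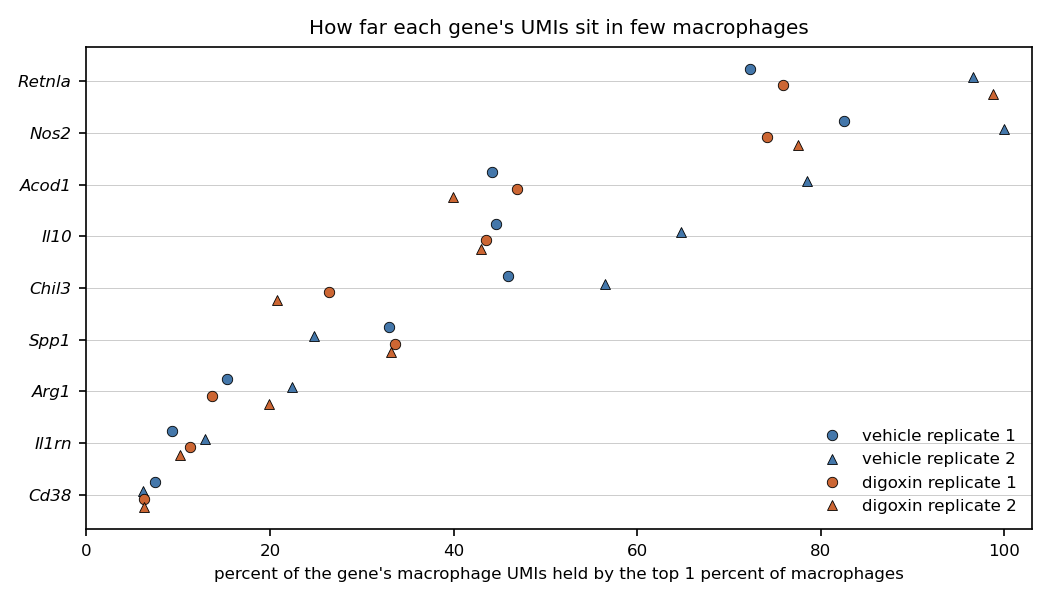
Share of each gene's macrophage UMIs that was held by the 1% of macrophages with the most UMIs of it (horizontal axis, percent), for 9 genes (vertical axis), with 1 point for each mouse. Retnla (72.3 to 98.8%) and Nos2 (74.1 to 100%) sat in few cells, and Cd38 (6.13 to 7.47%) and Il1rn (9.33 to 12.96%) were spread over many.

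Macrophages, the most numerous non-malignant cells, held most of the UMIs of 8 members in each mouse. Over the 4 mice together they held 99.4% of Retnla, 98.1% of Arg1, 97.1% of Il1rn, 96.1% of Il10, 93.7% of Cd38, 91.3% of Chil3, 85.0% of Acod1 and 70.5% of Spp1 UMIs. The Nos2 share was 40.4, 23.5, 73.4 and 66.9% in the 4 mice, with both digoxin mice above both vehicle mice. For Il12b the share was 3.19%.

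Per cell, other populations often stood higher. Neutrophils (11, 5, 34 and 23 cells) had Acod1 at 800.1, 428, 310.2 and 333 CPM, above every other population in each mouse. Their Il1rn, at 559, 522, 333 and 542 CPM, also lay above the range of M1, whereas their Chil3, at 64.9, 286, 3103 and 712 CPM, overlapped it. Digoxin replicate 1 had the highest neutrophil Chil3, and it also had the highest summed level of the 7 neutrophil markers in these cells (29858, 7327, 135376 and 26733 CPM). Nos2 had its highest mean over the 4 mice in the cells named Epithelial, at 42.1, 33.3, 42.4 and 29.8 CPM, and thinned shares of them with a Nos2 UMI were 18.4, 17.7, 16.0 and 13.3%. These cells carried the endothelial markers Cdh5, Pecam1, Kdr and Emcn at a summed 2719.9 to 3042 CPM, and the epithelial markers at 7.17 to 19.3 CPM, so the data go against their name. Fibroblasts had Nos2 at 24.0, 2.57, 7.42 and 52.2 CPM, from 66, 1, 11 and 80 UMIs, and their range overlapped those of the Epithelial and M1 cells.

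Among populations present in all 4 mice, Spp1 was highest in NK cells, at 2174, 2094, 1737 and 2122 CPM, and the shares of thinned NK cells with an Spp1 UMI were 87.1, 71.6, 74.8 and 86.0%. All 5 NK markers were detected in them, at a summed 4578 to 5438 CPM, against 212 to 418 CPM for the 8 macrophage markers. Fibroblasts followed at 1764, 288, 1528 and 1257 CPM and overlapped both NK cells and M1. Osteoclasts had Spp1 at 504, 532, 322 and 414 CPM, below the range of M1. Malignant cells had Spp1 at 243, 273, 216 and 176 CPM, where Arg1 and Chil3 were low, with Arg1 at 18.5, 6.66, 21.1 and 8.35 CPM and Chil3 at 0.630, 0.323, 3.48 and 1.86 CPM. Without cells marked as doublets Arg1 was lower there, at 7.54, 2.99, 7.88 and 3.78 CPM, as was Chil3, at 0.283, 0.115, 1.09 and 0.436 CPM. The malignant Chil3 values kept the order of the macrophage values across the 4 mice.

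**Figure D4:**
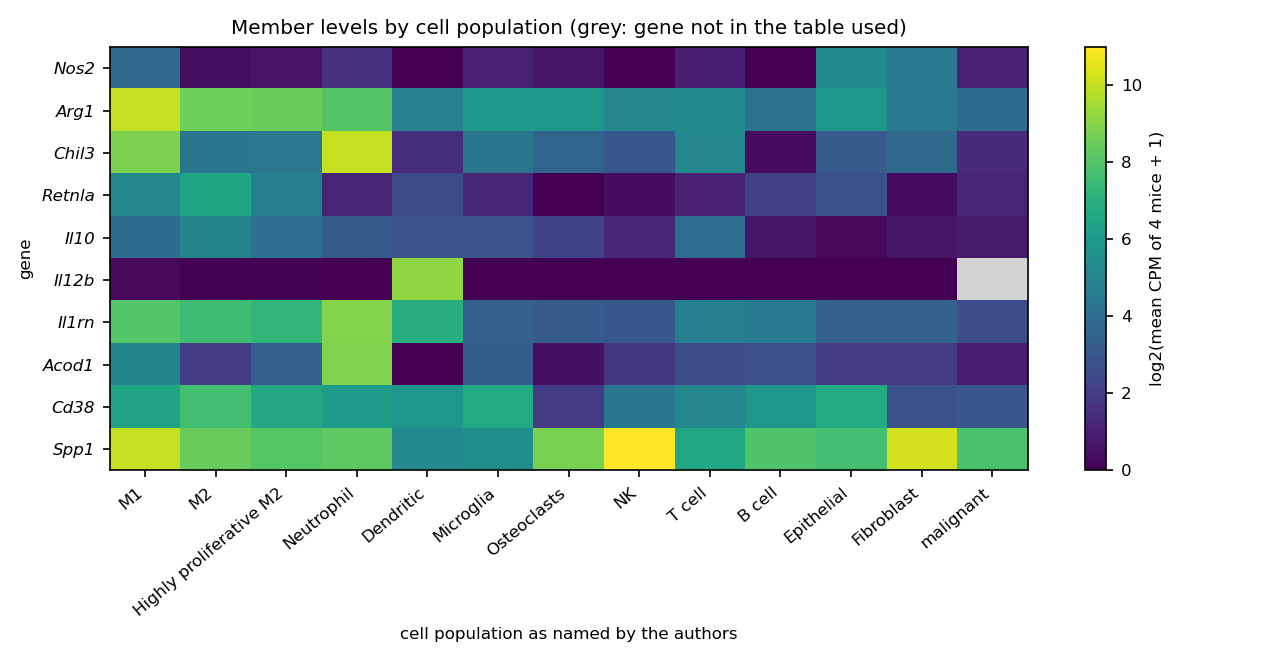
Mean level of each gene over the 4 mice (log2 of mean CPM plus 1, color scale) in 13 populations as the authors named them. Il12b stands out in dendritic cells, Acod1, Il1rn and Chil3 in neutrophils, and Spp1 in NK cells (1737 to 2174 CPM). Rows should be read across populations and not against each other.

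The genes whose levels tracked each member most closely were found by Pearson correlation of log2(mean CPM + 1) over 36 points, 9 populations in each of 4 mice, among 9141 genes. The points share libraries and cell annotation, so these values describe likeness only. Arg1 was most like Slc11a1 (r = 0.89) and Fcgr1 (r = 0.89), and Il1rn most like Slc11a1 (r = 0.95) and Lyz2 (r = 0.95). Slc11a1 encodes a metal transporter of phagocyte endosomes, Fcgr1 an antibody receptor and Lyz2 lysozyme. Chil3 was most like Arg2 (r = 0.86) and Ifitm6 (r = 0.84), and Acod1 most like Ly6i (r = 0.81) and Ifitm6 (r = 0.77). Arg2, the mitochondrial arginase, was at 21.0, 17.1, 37.0 and 38.7 CPM in M1, with both digoxin mice highest, as for Chil3. Retnla was most like Rnase2a (r = 0.93) and Tmem106a (r = 0.84). Rnase2a, a ribonuclease of the eosinophil-associated family, was at 112, 7.39, 106 and 0.911 CPM in M2, high in the same mice as Retnla. It has close paralogs whose reads the counting could have split. Cd38 was most like Mef2a (r = 0.89) and Bmp2k (r = 0.88), Il10 most like Tlr1 (r = 0.83) and Naaa (r = 0.83), and Nos2 most like Plcb1 (r = 0.85) and Adm (r = 0.84). The weakest likeness was that of Spp1 to Vegfa (r = 0.69) and Tiam2 (r = 0.68) and of Il12b to Msrb1 (r = 0.62) and Gm9733 (r = 0.59). The populations in this measure hold no dendritic cells or neutrophils, which had under 20 cells in some mice.

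Digoxin was compared with vehicle by limma over 2 mice against 2 in each population, with p-values adjusted over all genes tested there. The p-values measure the spread between these mice, and an exact permutation of 2 against 2 cannot go below 0.333. No member passed an adjusted p of 0.05 with limma in any of the 12 populations tested, where between 1 and 4 members a population were at an unadjusted p under 0.05. By DESeq2, 1 member was called in M1, Highly proliferative M2, all non-malignant cells and malignant cells each, and by edgeR 0. This leaves out Chil3 in NK cells, which edgeR and DESeq2 both called. It had no UMI in either vehicle mouse and passed the filter on low values through the digoxin mice alone, so these calls support nothing. Over all genes tested, limma called 0% in malignant cells, Fibroblast, Microglia and T cells, 0.0765% in NK cells and 0.0128% in Osteoclasts. In all macrophages limma called 0 of 13734 genes (0%), 555 had a p under 0.05 before adjustment, edgeR called 0 and DESeq2 called 20. Of the 9 members tested there, Nos2 and Chil3 had both digoxin mice above both vehicle mice, where 13.6% of genes did, and 0 tested members had both below, where 17.3% of genes did. The median log2 difference was 0.64 over the tested members and -0.01 over all genes tested. The members' median depends on vehicle replicate 2. Without that mouse Nos2, Arg1, Il10, Il1rn and Acod1 fell to 1.18, 0.03, -0.24, 0.10 and -0.24. Cd38 and Spp1 rose to 0.35 and 0.20.

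Nos2 in all macrophages was at 3.73 and 1.09 CPM with vehicle and 11.5 and 8.14 CPM with digoxin, a log2 difference of 1.77 (adjusted p 1.00 by limma, SE 0.380). Chil3 was at 96.0 and 92.7 CPM with vehicle and 433 and 199 CPM with digoxin, a log2 difference of 1.63 (adjusted p 1.00 by limma, SE 0.326). The difference in Chil3 was 1.60 without vehicle replicate 2, the mouse with the fewest M1 cells, and 1.31 with equal weight for the 3 sub-clusters. For Nos2 these values were 1.18 and 1.49, and with a pseudocount of 10 its difference was 0.68. Single left-out mice decided whether limma called a member, in fits that left 1 mouse in a group. With each mouse left out in turn, the log2 difference ran from 1.18 to 2.36 for Nos2 and 1.07 to 2.19 for Chil3. It ran up to 1.51 for Il10 and 2.30 for Acod1, and without vehicle replicate 2 these turned to -0.24 and -0.24. That mouse was the lowest of the 4 for 6 of the 10 members in macrophages, as for 37.8% of all genes.

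In M1, limma called 0 of 12182 genes (0%), with 942 that had p under 0.05 before adjustment, edgeR 0 and DESeq2 36. Nos2, Arg1, Chil3, Cd38 and Spp1, 5 of the 9 members tested, had both digoxin mice above both vehicle mice, against 15.3% of all genes. The log2 difference was 1.86 (adjusted p 0.464 by limma, SE 0.313) for Nos2, 1.32 (adjusted p 0.474 by limma, SE 0.308) for Chil3, 1.10 (adjusted p 0.611 by limma, SE 0.438) for Arg1, 0.46 (adjusted p 0.483 by limma, SE 0.121) for Spp1 and 0.36 (adjusted p 0.656 by limma, SE 0.162) for Cd38. With each mouse left out in turn, the log2 difference ran from 1.38 to 2.35 for Nos2, 0.88 to 1.75 for Chil3 and 0.33 to 0.58 for Spp1. It changed sign for Il10 (-0.60 to 1.69) and Acod1 (-0.23 to 1.98). With a pseudocount of 10 the Nos2 difference was 1.03. The log2 difference of Arg1 ran from 0.45 without vehicle replicate 2 to 1.76 without vehicle replicate 1, and that of Cd38 from 0.16 to 0.57 without the same mice. DESeq2 called Nos2 alone of the members, at an adjusted p of 0.000412, and over all alternatives the adjusted p of Nos2 in M1 ran from 0.000412 to 0.689. Of the 7 neutrophil markers, all detected in M1, 5 were higher there in both digoxin mice (S100a8, S100a9, Retnlg, Ly6g and Ngp). Csf3r was lower in both (47.1, 48.0, 44.9 and 39.8 CPM) and Cxcr2 overlapped. Their sum was 64.5, 61.8, 121 and 89.2 CPM, with S100a8 at 15.4, 9.68, 52.7 and 36.4 CPM. Without the cells that carried 3 or more of them, Chil3 kept both digoxin mice above both vehicle mice. Cells with fewer of these markers stayed in, and the part of neutrophils in the M1 Chil3 values was not tested.

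In M2 limma called 0 of 12545 genes (0%), 286 were at an unadjusted p under 0.05, edgeR called 0 and DESeq2 called 9. Cd38 was the 1 member of 8 tested with both digoxin mice above (15% of all genes), at 0.25 (adjusted p 1.00 by limma, SE 0.139). Spp1 was the 1 with both below (11.7% of all genes), at -1.22 (adjusted p 1.00 by limma, SE 0.432). Its difference ran from -1.98 without vehicle replicate 1 to -0.47 without vehicle replicate 2. Chil3 in M2 had a log2 difference of 1.90 (adjusted p 1.00 by limma, SE 0.890) and an interval from -0.14 to 3.94. The difference ran from 0.21 without digoxin replicate 1 to 3.60 without digoxin replicate 2.

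In Highly proliferative M2, limma called 0 of 11459 genes (0%), with 451 that had p under 0.05 before adjustment, edgeR 0 and DESeq2 13. Of the 8 members tested, Il1rn and Cd38 had both digoxin mice above both vehicle mice (17.4% of all genes). Il1rn was at 145 and 90.7 CPM with vehicle and 173 and 194 CPM with digoxin, a log2 difference of 0.67 (adjusted p 1.00 by limma, SE 0.198), and Cd38 had 0.68 (adjusted p 1.00 by limma, SE 0.115). The log2 difference of Il1rn was 1.00 without vehicle replicate 1 and 0.34 without vehicle replicate 2. That of Cd38 ran from 0.59 to 0.78 with each mouse left out in turn. DESeq2 called Cd38 at an adjusted p of 0.03, and the range over the alternatives was 0.019 to 1.

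**Figure D5:**
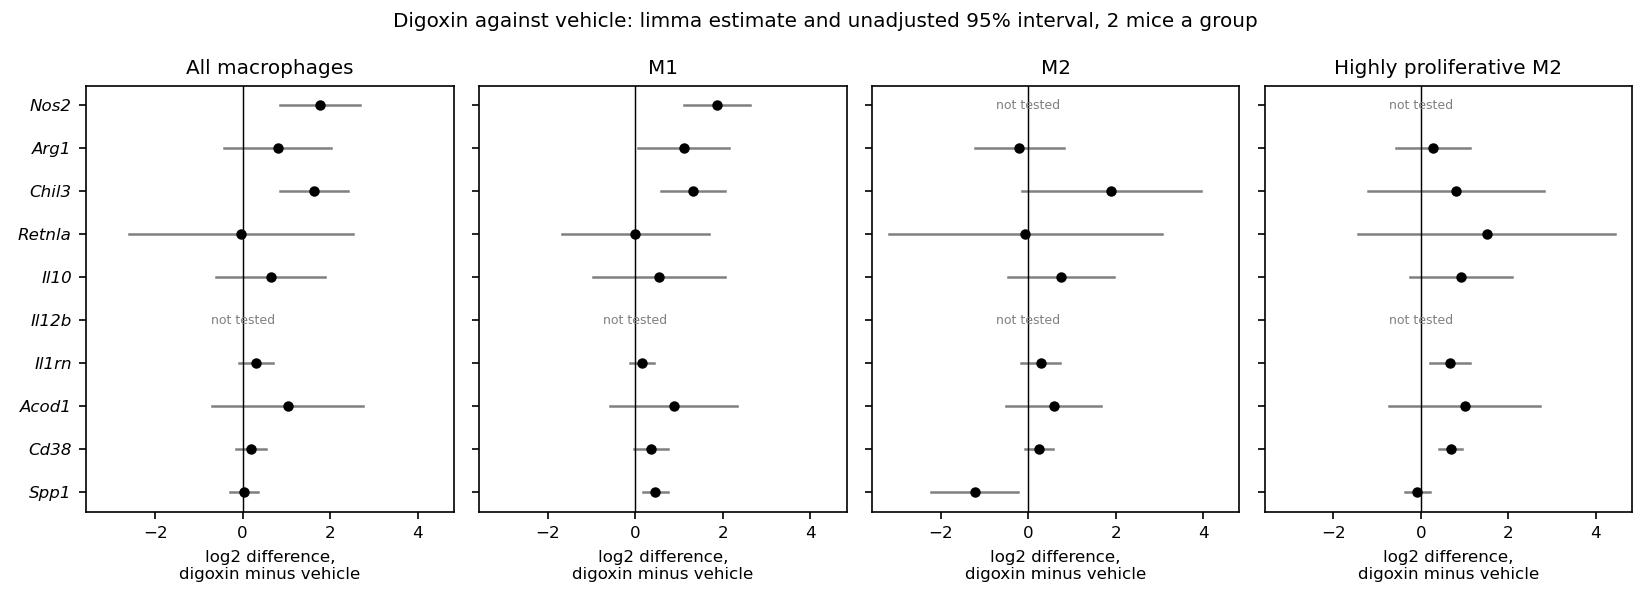
Difference between digoxin and vehicle in log2(mean CPM + 1) (horizontal axis) for each gene (vertical axis) in all macrophages and the 3 sub-clusters, as the limma estimate (point) and its unadjusted 95% interval (line), with 2 mice a group. The intervals of Retnla are the widest (-3.19 to 3.06 in M2), and no gene passed after adjustment.

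Whether the digoxin difference itself differed between M1 and M2 was tested on the within-mouse differences. Limma called 0 of 11932 genes (0%), with 723 that had p under 0.05 before adjustment, edgeR 0 and DESeq2 8. For Arg1 the digoxin difference was larger in M1 than in M2 by 1.30 (adjusted p 0.804 by limma, SE 0.210) on the log2 scale. The limma estimate was 1.15 to 1.46 with each mouse left out in turn, and DESeq2 called it at an adjusted p of 1.62e-09. Over all alternatives the adjusted p ran from 1.62e-09 to 1. For Spp1 it was 1.68 (adjusted p 0.804 by limma, SE 0.599). Spp1 was the only member with both digoxin mice higher in M1 and both lower in M2, as 2.56% of genes were non-overlapping in opposite directions.

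Counting macrophage sub-clusters, other clusters and malignant cells singly, Chil3 passed the filter with UMIs in both groups in 5 populations, and both digoxin mice lay above both vehicle mice in 3 of them. They were malignant cells (12.8% of the genes tested had this order there), T cells (14.3%) and M1. By the same count Il1rn was higher in 4 of 9 populations, Arg1 in 2 of 10 and Nos2 in 1 of 4. Cd38 was higher in 4 and lower in 1 of 8, and Spp1 higher in 3 and lower in 3 of 10. Malignant cells were among the lower populations of both. Retnla, Il10 and Acod1 had 0 in either direction. These counts were not set against those of other genes. Chil3 did not pass the filter in the cells named Epithelial (0, 0, 83 and 1 UMIs), Fibroblast (0, 0, 87 and 2 UMIs), Microglia (9, 0, 9 and 38 UMIs) and Osteoclasts (0, 2, 57 and 0 UMIs). In NK cells it was at 0 and 0 CPM with vehicle and 20.04 and 8.26 CPM with digoxin, from 0, 0, 72 and 28 UMIs. Most of these UMIs lay in cells marked as doublets. Without those cells 0, 0, 3 and 4 Chil3 UMIs were left in NK cells, a level of 0, 0, 2.07 and 2.03 CPM, and the gene did not pass the filter. The neutrophil markers summed to 3.08, 0.489, 15.7 and 5.91 CPM in the same NK cells, with Ly6g and Ngp at 0, and their part in the Chil3 values was not tested. In malignant cells the log2 difference of Chil3 was 1.29 (adjusted p 1.00 by limma, SE 0.229), which DESeq2 alone called (0.00282). Over all alternatives the difference ran from 0.27 to 2.31. Without doublets it was 0.54, from 95, 47, 263 and 116 UMIs in place of 196, 122, 980 and 337. The neutrophil markers summed to 11.5, 11.8, 32.2 and 19.7 CPM in malignant cells and 6.50, 18.1, 39.1 and 127 CPM in T cells, higher in both digoxin mice as Chil3 was, and their part was not tested there either. In T cells Chil3 was at 1.49 and 22.1 CPM with vehicle and 84.6 and 28.6 CPM with digoxin, and without doublets at 1.01, 22.3, 85.5 and 29.0 CPM. With doublets kept, 0, 0, 6 and 3 NK cells had a Chil3 UMI at all. Free RNA in droplets can give UMIs in cells that do not make a transcript, and its part here was not tested.

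Arg1 in the cells named Epithelial was at 12.5 and 1.73 CPM with vehicle and 167 and 37.5 CPM with digoxin, a log2 difference of 3.73 (adjusted p 0.0675 by limma, SE 0.738), where limma called 48 of 10272 genes (0.467%) and edgeR 0. The log2 difference of Arg1 there was 4.88 without vehicle replicate 1 and 2.57 without vehicle replicate 2. It rests on 21 and 4 Arg1 UMIs with vehicle and 379 and 52 with digoxin. After thinning, an Arg1 UMI was found in only 3.95, 2.08, 4.94 and 7.23% of the cells named Epithelial. Mast cell markers in these cells summed to 59.4, 259.7, 4709 and 5304 CPM and macrophage markers to 175, 308, 437 and 396 CPM. Both lists were higher with digoxin and their part in the Arg1 values was not tested. Il12b over all non-malignant cells was at 4.68 and 5.41 CPM with vehicle and 1.77 and 1.14 CPM with digoxin, a log2 difference of -1.31 (adjusted p 0.975 by limma, SE 0.181), where limma called 0 of 14879 genes (0%), with 581 that had p under 0.05 before adjustment, edgeR 0 and DESeq2 30. DESeq2 called Il12b (adjusted p 8.18e-06), in a range of 8.18e-06 to 1 over all alternatives. The log2 difference ran from -2.03 to -0.39 over them. Both digoxin mice lay below, as for 20.6% of all genes. Dendritic cells, its main source, numbered 18 and 21 with vehicle and 14 and 10 with digoxin, so the number of dendritic cells and the level per cell both entered this value.

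Other genes of these pathways were taken from 9 lists, and limma called 0 of their genes in all macrophages or a sub-cluster. At an unadjusted p under 0.05 there were 0 to 5 genes a list and population, edgeR called 0, and DESeq2 called 1 gene of the alternative activation list in all macrophages, in M2 and in Highly proliferative M2 and 1 of arginine metabolism in M1. All 12 genes of the interleukin-1 list were higher in M1 than in M2 in all 4 mice, as were 19 of 22 classical activation genes, and some genes stand in both lists. For these and the list counts below, the background over 11932 genes was 18.6% higher in M1 in all 4 mice and 49.1% lower. Il1b, the cytokine whose receptor Il1rn blocks, was at 3011 to 3375 CPM in M1 and 338 to 531 CPM in M2, and Nlrp3, an inflammasome sensor, at 171 to 223 and 94.1 to 149 CPM. Of the 22 alternative activation genes, 12 were higher in M1 in all mice and 8 lower, the latter including Mrc1, a mannose receptor (400.3 to 539 CPM in M1 and 1722 to 2464 in M2), and Ccl8, a chemokine (314 to 712 and 1408 to 2882 CPM). In the interleukin-4 and interleukin-13 list, of 10 genes in the table, 4 were higher and 4 lower. Il4ra, the receptor chain, was lower in M1 in each mouse (128 to 153 CPM in M1 and 193 to 282 in M2). Kdm6b, a histone demethylase, was higher in M1 in each mouse (196 to 273 and 136 to 230.2 CPM). Arginine metabolism had 5 of 12 higher and 3 lower. Gch1, which makes the cofactor of nitric oxide synthase, was at 83.2 to 124 CPM in M1 and 49.0 to 67.2 in M2, and Oat, which uses ornithine, at 55.0 to 64.2 and 75.0 to 91.9 CPM.

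The interleukin-10 and interleukin-12 list had 8 of 13 genes higher in M1 in all mice and 2 lower. Socs3, a feedback inhibitor, was at 436 to 446 CPM in M1 and 239.8 to 289 in M2, and the kinase Jak1 at 162 to 169 and 166 to 185 CPM. The list of NAD consumption and salvage had 3 of 12 higher and 5 lower. Its Bst1, a relative of Cd38, was at 141, 72.1, 168 and 180.3 CPM in M1, lowest in vehicle replicate 2, and Nadk, the NAD kinase, was at 87.3 to 109 CPM in M1 and 79.5 to 115 in M2. The 8 osteopontin receptors were split at 4 higher and 4 lower. Cd44 was at 445, 320.0, 608 and 580.3 CPM in M1, with both digoxin mice above both vehicle mice (log2 difference 0.65, limma adjusted p 0.483), and the integrin Itgb1 at 257 to 289 CPM. Among 13 regulators of the members, 5 were higher and 4 lower in M1, with Cebpb at 2289 to 2548 CPM in M1 and 1783 to 1913 in M2. In M1 the median log2 difference between digoxin and vehicle over the tested genes of each list lay between -0.04 and 0.20, beside -0.02 over all genes and 0.54 over the members. The value for the members depends on vehicle replicate 2. Without that mouse Nos2, Arg1, Il10, Acod1, Cd38 and Spp1 in M1 fell to 1.38, 0.45, -0.60, -0.23, 0.16 and 0.33. Chil3 and Retnla rose.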

How the data were processed

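Per the labels' protocols, single cells of 4 tumors were sequenced on a droplet platform with version 3 chemistry for RNA 3′ ends. Per the submitters' processing notes, Cell Ranger 3.0.2, Seurat 3.0.2 and the build mm10 were used, with no roles given. The authors deposited natural log values, ln(1 + UMIs per 10000 UMIs of a cell), per the cell totals in their tables, beside UMI counts per cell and annotations of clusters and sub-clusters. UMIs were recovered from these values and 100% were whole within 0.01. Their sums matched the deposited count of every cell.

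The 10 genes, the 9 lists, the markers and the tests were chosen with earlier results of these data known. Members are named throughout, with the 2 genes of each list highest in macrophages, any list gene called by limma, and the 2 genes most like each member (Pearson, genes with a mean of at least 20 CPM in a population). List genes called by DESeq2 alone are counted and not named. Mean CPM per mouse and population was analysed as log2(CPM + 1) with limma 3.58.1 (variance trend, filterByExpr of edgeR 4.0.16, Benjamini-Hochberg adjustment over all genes of a population, R 4.3.3), in populations of at least 20 cells in each mouse. A gene was called at an adjusted p under 0.05. The script was tested on simulated data with known changes. Alternatives were edgeR's quasi-likelihood test and DESeq2 1.42.0 on summed UMIs, pseudocounts of 0.1 and 10, no filter, equal weight for the 3 macrophage sub-clusters, each mouse left out, a replicate block (crossed in malignant cells, an alternative chosen after seeing the data), and removal of doublets or of cells above 20% mitochondrial UMIs. Doublets were kept in the main values, and Scrublet (in scanpy 1.11.5) marked 4.36% of 31611 cells. Averages weight cells equally, so deep cells do not dominate, and genes of few UMIs are imprecise. Thinning to 5000 UMIs left out 31 of 4874 vehicle and 37 of 5489 digoxin macrophages. Replicate numbers are not stated to mark a shared litter or day. A further allele in the genotype label, a gene of the list of regulators and a marker gene are not reported here. Gene places, names and promoter sequences are from RefSeq, GRCm38.p6. The deposited tables give genes by symbol only.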

Additional observations from a re-analysis of the deposited data

Results flagged for a closer look

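Spp1 drew attention because the digoxin mice moved opposite ways in the 2 sub-clusters. Both digoxin mice were above both vehicle mice in M1 and below both in M2, and the test of that difference gave 1.68 (adjusted p 0.804 by limma, SE 0.599) on the log2 scale, which did not pass. Vehicle replicate 2 held the highest M2 value, 745 CPM, and without it the difference between sub-clusters was 0.80.

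The 30 cells that the authors named Unknown were present in vehicle replicate 2 only and entered no comparison but that over all non-malignant cells. They held 12240 Spp1 UMIs, a level of 8438 CPM, above that of every other population in any mouse. They also held 20 Arg1, 8 Cd38, 6 Acod1 and 5 Il1rn UMIs, among 1707108 UMIs, at levels of 10.5, 4.09, 7.58 and 4.35 CPM. Malignant cells of that mouse had 6.66, 8.07, 0.153 and 3.59 CPM. Each count was above the 3 that a count of 0 allows, a limit for counting error only, which does not show that the cells make these transcripts.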

How the results depend on the processing

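Of the values of single members, 407 of 443 under other tests, scalings, filters or cell sets and 133 of 192 with 1 mouse left out kept their direction and their side of the threshold. 26 and 34 of them changed direction, and 10 and 25 newly passed the threshold. The cause of these changes was not tested. Dropping the filter or adding a replicate block cannot change a member's limma log2 difference in this balanced design. Its direction was therefore fixed in advance under those settings, and these cases are no sign of stability. With 2 mice a group, leaving 1 out leaves a lone mouse that is assumed to vary like the others. Depth limits Il12b in macrophages, with 2 to 13 UMIs a mouse, and Nos2 in M2, with 4 to 16. Chil3 in NK cells had no UMI in the vehicle mice and no value without doublets, and its calls there, counted below, rest on the filter.

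By limma the log2 difference of Retnla was near 0, at -0.033 in all macrophages, -0.0040 in M1 and -0.065 in M2. In all macrophages it was 0.79 by edgeR with either scaling, 0.80 by DESeq2 and 0.11 with a pseudocount of 10. In M1 it was 0.20 by edgeR, 0.16 by DESeq2 and 0.062 with a pseudocount of 10, and in M2 it was 0.96, 0.95 and 0.12. Spp1 in all macrophages was 0.032 by limma, -0.091 by edgeR with TMM scaling and -0.085 with DESeq2 size factors and by DESeq2, and in Highly proliferative M2 it was -0.086 by limma and 0.064 and 0.065 by the others. The difference of the digoxin effect between M1 and M2 turned from -0.59 to 0.094 for Chil3 with a pseudocount of 10. For Retnla it turned from 0.061 to -0.43 by edgeR, -0.25 by DESeq2 and -0.060 with a pseudocount of 10. For Acod1 it turned from 0.29 to -0.40 by edgeR with TMM scaling, -0.41 with DESeq2 size factors and -0.16 by DESeq2.

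With 1 mouse left out, the log2 difference in all macrophages ranged from -1.79 to 1.72 for Retnla, -0.24 to 1.51 for Il10, -0.24 to 2.30 for Acod1 and -0.13 to 0.20 for Spp1. In M1 it ranged from -1.17 to 1.16 for Retnla, -0.60 to 1.69 for Il10 and -0.23 to 1.98 for Acod1. In M2 it ranged from -1.01 to 0.61 for Arg1, -2.40 to 2.27 for Retnla, -0.17 to 1.66 for Il10 and -0.045 to 1.22 for Acod1. In Highly proliferative M2 it ranged from -0.33 to 0.89 for Arg1, -0.63 to 2.23 for Chil3, -0.79 to 3.79 for Retnla, -0.019 to 1.87 for Il10, -0.43 to 2.43 for Acod1 and -0.25 to 0.079 for Spp1. The difference between sub-clusters ranged from -1.84 to 0.67 for Chil3, -1.95 to 2.07 for Retnla, -0.74 to 0.34 for Il10, -0.35 to 0.083 for Il1rn, -0.21 to 0.79 for Acod1 and -0.16 to 0.40 for Cd38.

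Members called by limma numbered 0 in every population. With 1 mouse left out the number rose in most populations, as did the number of all genes called. Such fits leave a lone mouse in a group, so these calls support nothing about the members. DESeq2 called 1 member each in M1, Highly proliferative M2, NK, all non-malignant cells, malignant cells and the difference between M1 and M2, and edgeR called 1 in NK.

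Genes called by limma were 48 in Epithelial, where edgeR called 0, DESeq2 15, a pseudocount of 0.1 gave 18, no filter 6 and removal of cells high in mitochondrial UMIs 26. In NK cells they were 7, against 17 by edgeR and 1 without doublets. In Osteoclasts they were 1, against 0 by edgeR and 6 by DESeq2. In Microglia a pseudocount of 10 gave 2 and removal of doublets 4. DESeq2 called 20 genes in all macrophages, 36 in M1, 9 in M2, 13 in Highly proliferative M2, 1 in Fibroblast, 1 in Microglia, 30 in all non-malignant cells, 44 in malignant cells and 8 for the difference between M1 and M2. With 1 mouse left out, genes called ranged from 0 to 138 in all macrophages, 0 to 210 in M1, 0 to 51 in M2, 0 to 267 in Highly proliferative M2, 12 to 344 in Epithelial, 0 to 414 in Fibroblast, 13 to 87 in Microglia, 12 to 107 in NK, 0 to 5 in Osteoclasts, 0 to 198 in T cells, 0 to 69 in all non-malignant cells and 0 to 15 in malignant cells.

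The replicate numbers do not show a pairing. Deviations of same-numbered mice from their group means correlated at -0.04 in all macrophages, -0.03 in M1, 0.01 in M2 and -0.36 in malignant cells. With the replicate number as a block, limma called Arg1 and Spp1 in Epithelial, Chil3 in NK, and Chil3 and Spp1 in T cells. All genes called there were 85 of 10272, 23 of 9147 and 57 of 8930, against 48, 7 and 0 without the block. A block fitted to 4 mice leaves very little from which to estimate their spread, so these calls are unreliable. Limma with the block called 3 genes in Osteoclasts and 2 in all non-malignant cells. The crossed pairing, added after seeing the data, called 0 genes and 0 members in malignant cells.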
